A study of Mus musculus with 40 samples.

Results

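The genes described here encode the machinery that sits at the T cell receptor and carries its signal inward: receptor chains, kinases, adaptors, the calcium and NFAT branch, and the proteins that restrain them. Of 43 listed genes, 41 were measured among 18194 genes in 8 arrays of sorted T cells, and 40 among 17097 genes in 32 arrays of regulatory T cells (Treg) exposed to a ligand. Lck and Itpr1 were not analysed here in either experiment, and Csk was not analysed here in the second. Each gene was represented by 1 probe set annotated to it alone, the one with the highest mean over the arrays of its platform. Both experiments used C57Bl/6 mice. In the first, every mouse carried a GFP reporter at Foxp3, the gene of the Treg lineage factor. CD4+ CD45RBlow GFP+ Treg and CD4+ CD45RBhi GFP- conventional T cells were sorted and kept in culture for 48 h, with anti-CD3/CD28 for 3 arrays of activated Treg and without stimulation for 3 arrays of Treg and 2 of conventional cells, both called resting. Bone marrow is given as their source in the labels. The CD45RB gate differed between Treg and conventional cells along with the lineage. In the second, YFP+ CD45RBlo Treg were sorted from spleen and peripheral lymph nodes of Foxp3-YFPiCre mice, called wild type, or of Nrp fl/fl x Foxp3-YFP-iCre mice, whose Treg lose neuropilin-1 through a recombinase driven by Foxp3 itself. All of these Treg received immobilized anti-CD3 at 1 µg/mL, soluble anti-CD28 at 2 µg/mL and IL-2 at 100 U/mL, with either mouse IgG1 or a Sema4a-Ig fusion protein at 10 µg/mL on the plate, and each of the 4 groups has 8 arrays. Sema4a is a semaphorin that binds neuropilin-1. No array of unstimulated Treg belongs to the second experiment, so its comparisons are all within stimulated cells.

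When the receptor is engaged, Lck phosphorylates the CD3 and zeta chains, Zap70 docks on them and phosphorylates the scaffolds Lat and Lcp2 (SLP-76), and these assemble phospholipase C gamma, Vav1 and the Ras activators. Phospholipase C gamma makes inositol trisphosphate and diacylglycerol. The first empties the calcium store of the endoplasmic reticulum, Stim1 senses the loss and opens the Orai1 channel, and the calcium that enters drives calcineurin and NFAT, while diacylglycerol recruits Rasgrp1 and protein kinase C theta (Prkcq), the latter upstream of Bcl10 and Malt1. Phosphatases, Cbl family ubiquitin ligases, diacylglycerol kinases and inhibitory adaptors turn these steps down. Treg depend on the receptor for their suppressive activity and are known for signalling through it in a damped way.

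Values are log2 signals, so a difference of 1 is a doubling. A gene was called where its adjusted p in limma (Benjamini-Hochberg over all genes of the experiment) was under 0.05. The sorted Treg carried their identity, with Foxp3 between 10.33 and 10.91 in the 6 Treg arrays against 3.95 and 4.05 in the conventional ones. In the ligand experiment the Foxp3 probe set averaged 3.55, within the range of the nonspecific control probe sets (median 2.29, highest 3.95), while Ikzf2 (11.11), Ctla4 (11.09) and Il2ra (10.26) were high, so Treg identity rests on the sort there. At every gene the mean of each IgG1 and Sema4a-Ig pair was the same in all 16 pairs, in both genotypes alike. Levels therefore cannot be compared between genotypes, the loss of neuropilin-1 cannot be checked in these values (Nrp1 had a pair mean of 8.58 in both), and only the difference within a pair carries information. Within pairs the Nrp1 signal was higher with Sema4a-Ig throughout, by 0.10 to 0.86 in wild type and by 0.035 to 0.79 in knockout. What this means for the deletion was not tested. The members lay well above the 3 background controls of the sorted arrays, the lowest being Rnf128 with a mean of 6.07 against a highest control of 4.02. In the ligand arrays only Sos1 (3.80) lay at or below the highest control. RNA quality divided the sorted arrays. The Actb 3' minus 5' signal, a usual measure of RNA degradation, was between 5.87 and 6.17 in activated Treg replicates 1 and 2 and resting Treg replicate 1, and between 1.24 and 2.67 in the other 5 arrays. Of the 41 members, 29 (70.7%) had a lower signal in the high class than in the low class of Treg arrays, against 49.4% of all genes. Values by class are given beside the calls. Both conventional arrays are of the low class, so a high-class difference from them mixes cell type with RNA quality. For resting Treg the high class is 1 array. The labels do not say that replicates come from separate animals, so the p-values here describe a spread that may be technical. In bulk RNA, fewer cells of a type and less RNA per cell cannot be told apart.

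The comparison of resting Treg with resting conventional T cells asks how the machinery is set before stimulation. Among the members, 3 were higher in Treg (Sla, Malt1 and Cd6) and 3 were lower (Themis, Trat1 and Pag1), where 5.51% of all genes were called, 3.86% higher and 1.65% lower. At an unadjusted p under 0.05 there were 17 of 41 members, against 17.9% of all genes. The Treg and conventional arrays did not overlap for 12 members higher and 17 lower, against 21.6% and 20.4% of all genes. The median member differed by -0.24, the median gene by 0.01. The kinases, adaptors and effectors (15 measured) had a median of -0.36 with 1 higher and 2 lower, and the 15 negative regulators a median of 0.18 with 2 higher and 1 lower. These medians differed between the quality classes. In the low class they were -0.22 and -0.06. In the high class, 1 resting Treg array set against the same low-class conventional arrays, they were -0.72 and 0.40.

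**Figure D1:**
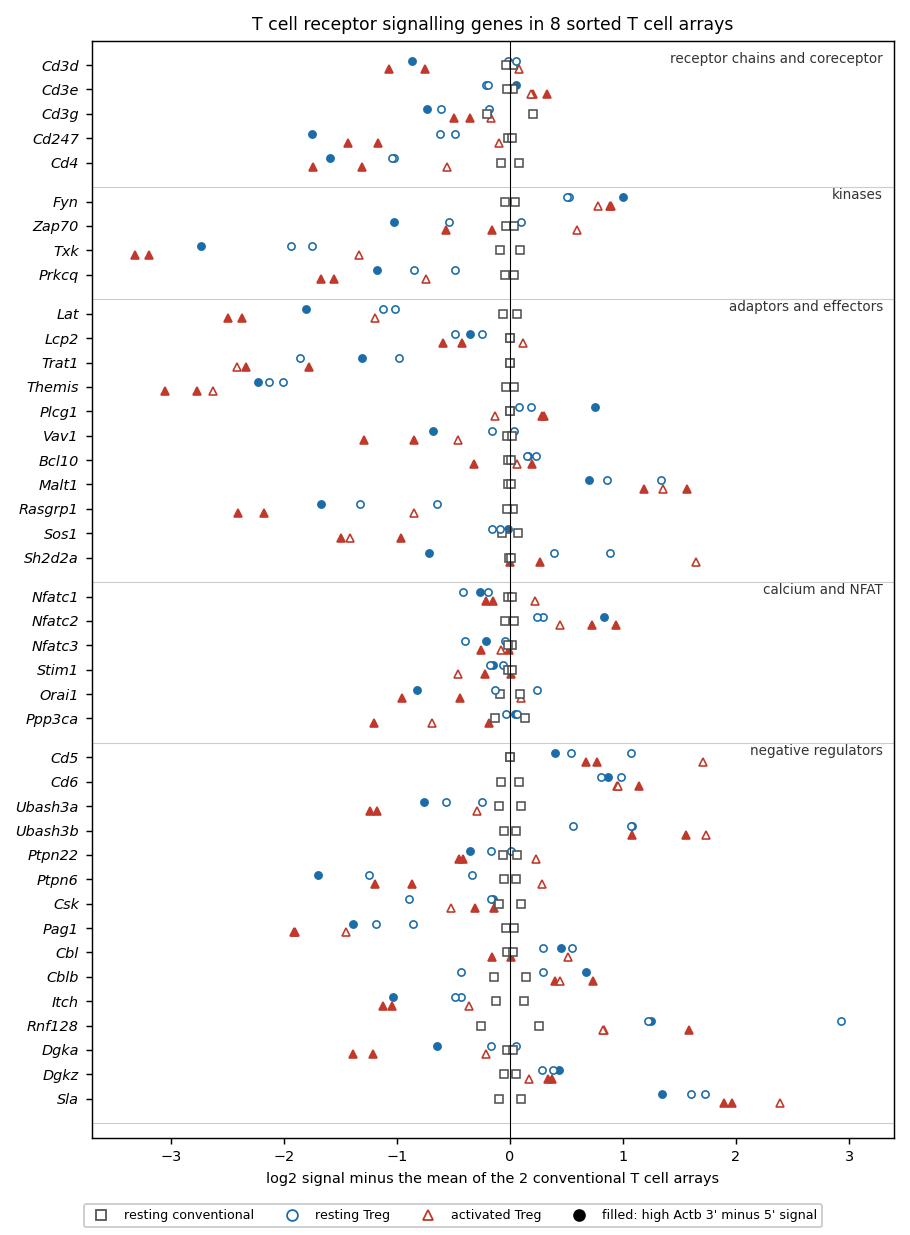
Each row is one of 41 members, grouped by role, and each point one array; the x axis is the log2 signal minus the mean of the 2 conventional T cell arrays, and filled points are arrays with a high Actb 3' minus 5' signal. Themis, Trat1 and Pag1 lie left of the conventional arrays in all 6 Treg arrays and Sla, Cd6 and Malt1 right of them, while for Txk, Lat and Rasgrp1 the filled points lie farther left than the open points of the same group.

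All 5 receptor chain and coreceptor genes had negative differences in resting Treg, and none passed the test. Cd3d, the CD3 delta chain, read 12.52 and 12.46 in conventional cells and 11.63, 12.48 and 12.54 in resting Treg. The low value is the array of the high 3' minus 5' class. The same array was lowest for Cd247, the zeta chain that carries most of the receptor's phosphorylation sites, at 10.18 against 11.44 and 11.31 in the other resting Treg and 11.91 and 11.94 in conventional cells. Cd3e differed by -0.12, with means in resting Treg and conventional cells of 9.72 and 9.84, and Cd3g by -0.51 (11.57 and 12.08). Cd4, the coreceptor, was 9.53, 10.11 and 10.09 in resting Treg and 11.05 and 11.21 in conventional cells, groups that do not overlap (-1.22 ± 0.34 SE, adjusted p = 0.0848). A second Cd4 probe set, 1427779_a_at, gave -1.66 and passed in a fit over all probe sets (adjusted p = 0.00259); it is named here after its values were seen.

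Of the kinases, Txk, a Tec family kinase, was the member with the largest absolute difference. Its signals were 9.69 and 9.51 in conventional cells and 6.86, 7.85 and 7.67 in resting Treg. The groups were apart, but the spread among the Treg arrays kept it short of the threshold (-2.14 ± 0.57 SE, adjusted p = 0.0731). Within the low 3' minus 5' class the difference was -1.84. Prkcq, protein kinase C theta, read 12.23 and 12.31 in conventional cells and 11.09, 11.78 and 11.42 in resting Treg (-0.84, adjusted p = 0.194). Zap70, the kinase that docks on the phosphorylated chains, overlapped between the groups (means of 9.17 and 9.66). Fyn, the other Src family kinase of T cells, was higher at 12.00, 11.52 and 11.50 against 10.95 and 11.05, a difference of 0.67 that did not pass (adjusted p = 0.0890). A second Fyn probe set, 1417558_at, gave -0.01.

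The adaptors and effectors held 3 of the 6 calls. Themis, which binds Grb2 and the phosphatase Ptpn6 and sets signal strength in developing T cells, was 11.10 and 11.16 in conventional cells and between 8.90 and 9.12 in resting Treg, with means of 11.13 ± 0.04 (SD, n = 2) and 9.01 ± 0.11 (SD, n = 3). The groups were far apart. This is a 4.35-fold lower signal (-2.12 ± 0.18 SE, limma adjusted p = 0.000376), and the difference was -2.07 in the low class and -2.23 in the high class. The other 3 Themis probe sets gave -2.51 to -2.68, each past the threshold in the fit over all probe sets. Trat1, which encodes the transmembrane adaptor TRIM that associates with the receptor complex, read 10.97 in both conventional arrays and 9.66, 9.99 and 9.11 in resting Treg (-1.38 ± 0.29 SE, adjusted p = 0.0308), and its second probe set gave -0.95 without passing. By class it was -1.42, no longer called in the low class alone (adjusted p = 0.0835), and -1.31. Malt1, the protease that works with Bcl10 downstream of Prkcq, rose from 9.06 and 9.09 to 9.78, 9.93 and 10.41 (0.96 ± 0.22 SE, adjusted p = 0.0428). It was 1.09 in the low class, not called there alone (adjusted p = 0.0596), and 0.70 in the high class. Bcl10 itself differed by 0.18 (resting Treg and conventional means of 10.90 and 10.72) and Plcg1 by 0.34 (10.87 and 10.53). Lat, the membrane scaffold, was lower in every resting Treg array (10.49, 11.27 and 11.17 against 12.36 and 12.23) without passing the test (-1.32, adjusted p = 0.114). Rasgrp1, the diacylglycerol-gated Ras activator, was lower in each array too (-1.21, adjusted p = 0.213). The signals were 10.79, 11.82 and 11.14 against 12.48 and 12.44. Its weak probe sets 1421176_at and 1450143_at gave -1.87 and -2.06 and passed in the fit over all probe sets, a choice made after their values were seen. Lcp2 (-0.36), Vav1 (-0.27), Sos1 (-0.09) and Sh2d2a (0.19), the T cell adaptor TSAd, were not called. Their means in resting Treg and conventional cells were 10.90 and 11.27, 9.57 and 9.84, 10.08 and 10.17, and 9.35 and 9.17, in that order.

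In the calcium and NFAT branch no member was called. The 6 differences ran from -0.29 for Nfatc1 to 0.45 for Nfatc2, with Nfatc3, the channel gene Orai1, the store sensor Stim1 and the calcineurin catalytic subunit Ppp3ca between them. Resting Treg and conventional means were 10.55 and 10.84 for Nfatc1, 10.29 and 9.83 for Nfatc2 and 11.42 and 11.63 for Nfatc3. They were 8.66 and 8.79 for Stim1 and 9.65 and 9.63 for Ppp3ca. Orai1 read 8.70 and 8.88 in conventional cells and 7.97, 9.03 and 8.66 in resting Treg, so the groups overlapped.

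Among the negative regulators called, Sla had the largest difference. It encodes SLAP, an adaptor that directs the receptor complex to degradation through Cbl. Its signal was 10.66 and 10.86 in conventional cells and 12.10, 12.35 and 12.48 in resting Treg, a 2.94-fold rise (1.55 ± 0.21 SE, adjusted p = 0.00419). Cd6, a scavenger receptor family inhibitor of T cell signalling, rose from 10.13 and 9.96 to 10.91, 10.85 and 11.03 (0.88 ± 0.16 SE, adjusted p = 0.0143). Pag1, the raft adaptor that anchors Csk near Lck and Fyn, fell from 11.83 and 11.90 to 10.48, 11.01 and 10.68 (-1.14 ± 0.22 SE, adjusted p = 0.0206). In the low and high class in turn, Sla gave 1.66 and 1.34, Cd6 0.89 and 0.86, and Pag1 -1.02 and -1.39. Rnf128, the ubiquitin ligase GRAIL linked to anergy, was 4.73 and 5.25 in conventional cells and 6.24, 6.22 and 7.91 in resting Treg. Its groups did not overlap, yet the third Treg array stood far above the others (1.80 ± 0.51 SE, adjusted p = 0.0916). Ubash3b, the phosphatase Sts-1, was higher in each Treg array (0.90, adjusted p = 0.0796), and its second probe set 1435703_at passed in the fit over all probe sets (1.17, adjusted p = 0.0195). Cbl gave 0.43 with the probe set of highest mean, and 1.54 with 1455886_at, which passed (adjusted p = 0.00353) and was looked at after the values were known. Ptpn6, the phosphatase SHP-1, spread over 8.57, 9.03 and 9.93 in resting Treg against 10.22 and 10.32 (-1.10, adjusted p = 0.293). The remaining regulators were not called: Cd5 (0.67), Ubash3a (-0.53), Ptpn22 (-0.17), Csk (-0.40), Cblb (0.18), Itch (-0.65), Dgka (-0.25) and Dgkz (0.37). Resting Treg and conventional means were 11.75 and 11.08 for Cd5, 8.78 and 9.31 for Ubash3a, 10.97 and 11.14 for Ptpn22 and 9.48 and 9.88 for Csk, the kinase that inhibits Lck and Fyn. The ubiquitin ligases Cblb and Itch had means of 10.63 and 10.45 and of 9.59 and 10.24, and the diacylglycerol kinases Dgka and Dgkz of 13.46 and 13.72 and of 13.08 and 12.71. None of them passed the test, although the groups did not overlap for Cd5, Ubash3a, Csk, Itch and Dgkz.

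With only 2 conventional arrays the count of calls leaned on each of them. Without conventional replicate 1 there were 0 higher and 1 lower members, without conventional replicate 2 there were 1 and 1, and without resting Treg replicate 1 there was 1 lower member. The share of all genes called is not given beside these counts, so they do not set the members apart from other genes. Some markers of other cells differed in this comparison. Of 10 CD8 and NK markers 1 was lower in resting Treg, Klrd1, an NK receptor chain, at 12.03 in both conventional arrays and 6.67 to 8.25 in resting Treg. Summed without Klrd1, the other 9 gave 375.9 to 491.6 in conventional cells and 288.9 to 357.3 in resting Treg (linear signal). Resting Treg had more signal for 3 of the 9 genes that mark B cells, and their sum without Ighm, which was high in every array, was 200.6 to 213.9 in conventional cells and 314.8 to 673.4 in resting Treg. None of 9 genes linked to dendritic cells or to MHC class II was called, though 8 had positive differences and 1 a negative one. Their linear signal summed to 384.1 to 401.7 in conventional cells and 664 to 3039 in resting Treg. Resting Treg replicate 3, the array with the high Rnf128 value, read 10.55 for H2-Aa. The other resting Treg arrays read 7.79 and 8.86, and the conventional ones 6.64 and 6.24. The part of these cells in the members' differences was not tested.

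The upstream 250 bases of the Trat1 and Themis genes, the adaptors that separate Treg from conventional cells here, are shown to give the sequence these promoters start from. They come from RefSeq windows on GRCm38.p6, at chr16:48772063-48772312 on the minus strand for Trat1 and chr10:28668110-28668359 on the plus strand for the more upstream of 2 Themis starts. Capitals mark matches, on either strand, to GTAAACA (forkhead), TGTGGT (RUNX), CAGGAA (ETS), TGGAAA (NFAT) or GGGTGTGG (KLF).

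Trat1: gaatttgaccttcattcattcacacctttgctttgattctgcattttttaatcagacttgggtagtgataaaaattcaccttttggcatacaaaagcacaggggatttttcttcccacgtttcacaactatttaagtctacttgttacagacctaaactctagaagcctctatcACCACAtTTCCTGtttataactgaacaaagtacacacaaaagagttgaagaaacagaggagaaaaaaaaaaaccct
Themis: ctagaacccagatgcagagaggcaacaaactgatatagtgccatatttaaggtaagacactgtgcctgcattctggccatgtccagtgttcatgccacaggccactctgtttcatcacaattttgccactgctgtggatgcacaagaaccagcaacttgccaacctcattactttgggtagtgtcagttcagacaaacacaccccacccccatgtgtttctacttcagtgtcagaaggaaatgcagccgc

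The Trat1 window held the RUNX and ETS letters side by side, read on the opposite strand as ACCACA and TTCCTG with 1 base between them, and the Themis window held none of the 5 motifs. RefSeq windows were found for 33 of the 43 members. Among these genes 15 (45.5%) held the ETS letters in a window, against 28.3% of all 27025 genes with one. The RUNX letters were in 6 (18.2%, against 15.9%), the NFAT letters in 7 (21.2%, against 20.9%), and the forkhead and KLF letters in 2 each (6.06%, against 3.54% and 3.68%). A match is a description of the letters and not of a bound site.

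Activation of Treg for 48 h asks which parts of the machinery change under stimulation. The response genes of the receptor rose, 8 of 12 being called, led by Egr3 (5.93 ± 0.33 SE, adjusted p = 0.000968) and Egr2 (4.95 ± 0.47 SE, adjusted p = 0.00678), both transcription factors induced by the receptor. Of the 41 members 1 was called, lower, where 0.742% of all genes were called, 0.522% higher and 0.22% lower. At an unadjusted p under 0.05 there were 9 members, against 11.5% of all genes. The median member differed by -0.08. Of 16 myeloid markers none was called, but activated replicate 1 stood apart, with S100a8 at 11.29 against 6.22 and 4.10 in the other activated arrays and S100a9 at 10.32 against 5.17 and 3.96. The part of myeloid cells in this comparison was not tested. The adaptors and effectors had a median of -0.60 over 11 genes, and the kinases with adaptors and effectors -0.47 over 15, against -0.04 for the 15 negative regulators.

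The member called was Sos1, a Ras exchange factor recruited through Grb2. Resting Treg read 10.15, 10.01 and 10.09 and activated Treg 8.68, 9.21 and 8.76, so the groups were far apart (-1.20 ± 0.17 SE, adjusted p = 0.0272). The difference was the same size within the low class (-1.29) and the high class (-1.21). It rests on the probe set 1434389_at: the other 4 Sos1 probe sets, all much weaker, gave -0.25 to 0.10, and the call was lost with the mean of all probe sets (-0.33, adjusted p = 0.464). The annotation of the second array type assigns the matching probe set to Arhgef33 as well as Sos1. The call was also lost on leaving out activated replicate 1 or 3 or resting replicate 1 or 2.

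Next in size came members that missed the threshold. Trat1 read 9.66, 9.99 and 9.11 in resting and 9.19, 8.63 and 8.55 in activated Treg, which overlap (-0.80 ± 0.26 SE, adjusted p = 0.252). Themis was lower in every activated array, 8.08, 8.37 and 8.51 against 8.90 to 9.12 (-0.69 ± 0.16 SE, adjusted p = 0.112), and so was Ppp3ca, with 8.43, 9.44 and 8.94 against 9.59 to 9.69 (-0.72, adjusted p = 0.283). Pag1 did the same (-0.61, adjusted p = 0.239). Lat (-0.70), Dgka (-0.68), Rasgrp1 (-0.60) and Txk (-0.47) differed between the quality classes: within the low class they differed by -0.12, -0.16, 0.14 and 0.51. Rnf128 was -1.25 in the low class and -0.05 in the high class. Among the genes with positive values, Sla read 12.72, 12.64 and 13.15 in activated Treg, each above all resting arrays (0.53 ± 0.19 SE), and Cd3e did likewise (0.36, adjusted p = 0.362). Ubash3b gave 0.55, Ptpn6 0.50, Sh2d2a 0.45, Zap70 0.45, Malt1 0.41 and Cd5 0.38. Groups that do not overlap were found for 2 members higher and 4 lower, against 6.03% and 6.94% of all genes.

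Nfatc1, the NFAT gene that is itself induced by NFAT, differed between its probe sets. The one with the highest mean, 1428479_at, read 10.58, 10.65 and 10.43 in resting and 10.63, 10.69 and 11.06 in activated Treg (0.24, adjusted p = 0.655). The second, 1417621_at, read 9.29, 8.59 and 8.58 in resting and 10.64, 10.96 and 10.39 in activated Treg, and rose by 1.84 ± 0.24 SE (adjusted p = 0.0377 over all probe sets). The other 3 gave 0.89 to 1.39 without passing. These probe sets are described after their values were seen. No other member had a probe set called in this comparison apart from those of Sos1 and Nfatc1.

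**Figure D2:**
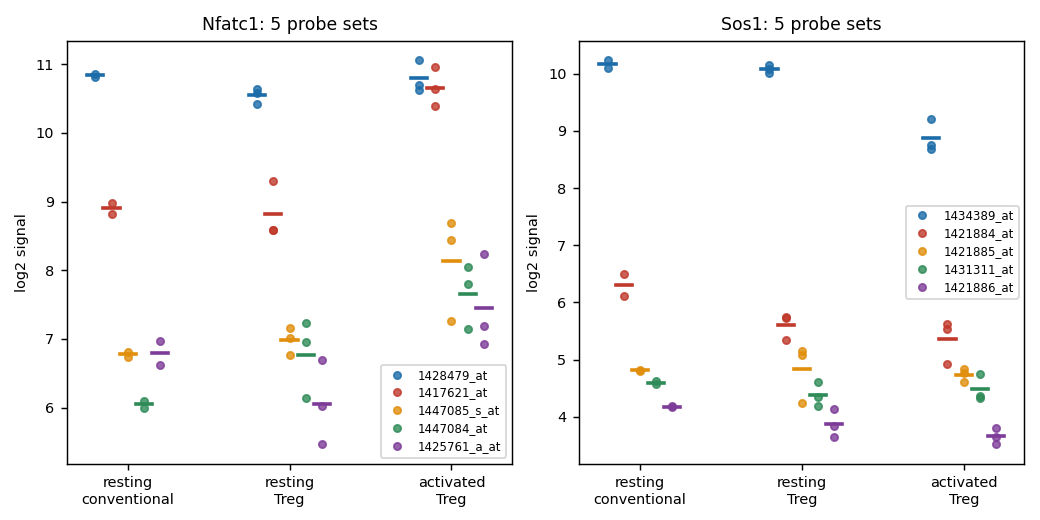
The y axis is the log2 signal of all 5 probe sets of Nfatc1 (left) and of Sos1 (right) in resting conventional T cells (2 arrays), resting Treg (3) and activated Treg (3); points are arrays and bars group means. Nfatc1 probe set 1417621_at is higher in all 3 activated Treg arrays than in any other array, and the brightest Sos1 probe set is lower in all 3, the one of its 5 that was called.

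Activated Treg against resting conventional T cells share arrays with both comparisons above, so the values are set beside them and are not a separate line of evidence. Here 5 members were higher and 8 lower, where 9.7% of all genes were called, 5.93% higher and 3.77% lower. The 15 kinases, adaptors and effectors had a median of -0.87, with 2 higher and 7 lower, and the 15 negative regulators a median of 0.12, with 3 higher and 1 lower. In the low class, with 1 activated array, the medians were -0.46 and 0.29. In the high class, set against the same low-class conventional arrays, they were -1.07 and -0.07. Groups that do not overlap were found for 11 members higher and 16 lower, against 21.4% and 19.7% of all genes. All 6 members called between the resting groups were called again in the same direction.

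Themis was 7.03-fold lower in activated Treg (-2.81 ± 0.18 SE, adjusted p = 7.23e-05), Trat1 4.52-fold lower (-2.18 ± 0.29 SE, adjusted p = 0.00263) and Pag1 3.38-fold lower (-1.76 ± 0.22 SE, adjusted p = 0.00186). Sos1 fell by 1.29 ± 0.19 SE (adjusted p = 0.00464). For these 4 genes the activated array of the low class alone gave -2.63, -2.42, -1.45 and -1.41, against -2.91, -2.06, -1.91 and -1.23 in the other 2 arrays. Txk read 6.28, 6.41 and 8.26 against 9.69 and 9.51 (-2.61 ± 0.57 SE, adjusted p = 0.0243). The 2 low values are the arrays of the high 3' minus 5' class, which differed from conventional cells by -3.25, while the third differed by -1.34. Lat fell by 2.02 (adjusted p = 0.0164), Rasgrp1 by 1.81 (adjusted p = 0.0465) and Prkcq by 1.32 (adjusted p = 0.0328), and each showed the same split: -2.43 in the high class against -1.20 in the low class for Lat, -2.29 against -0.85 for Rasgrp1 and -1.62 against -0.74 for Prkcq. With the quality class as a block Lat (-1.36), Txk (-1.68) and Prkcq (-0.86, adjusted p = 0.0369) kept their calls, and Rasgrp1 (-1.10, adjusted p = 0.0695) and Fyn (0.65, adjusted p = 0.0563) did not. In the low class alone Lat (adjusted p = 0.0368) and Txk (adjusted p = 0.0368) were called, and Prkcq (adjusted p = 0.145) and Rasgrp1 (adjusted p = 0.231) were not. Trat1 (adjusted p = 0.0507), Malt1 (0.0616), Cd6 (0.0643) and Fyn (0.0713) missed the threshold there too, with fewer arrays.

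Of the genes that rose, Sla was 4.24-fold higher (2.08 ± 0.21 SE, adjusted p = 0.000666) and Ubash3b 2.74-fold higher, from 8.60 and 8.71 to 10.21, 9.73 and 10.39 (1.46 ± 0.25 SE, adjusted p = 0.00832). All 3 Ubash3b probe sets passed in the fit over all probe sets. Malt1 rose by 1.37 ± 0.22 SE (adjusted p = 0.00638), Cd6 by 1.01 ± 0.16 SE (adjusted p = 0.00539) and Fyn by 0.85 ± 0.19 SE (adjusted p = 0.0273), the last again not shared by its second probe set (-0.07). In the low class these 5 differences were 2.39, 1.73, 1.36, 0.95 and 0.78. Cd5, a receptor-proximal inhibitor whose level follows signal strength, gave 1.05 without passing (adjusted p = 0.0958). Without either conventional array 1 higher and 3 lower members were left, without activated replicate 1 or 2 there were 4 lower members, and without activated replicate 3, the only low-class array of its group, there were 13. These counts too are given without the share of all genes called, and do not set the members apart.

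The ligand experiment asks what Sema4a-Ig adds to stimulated Treg and whether neuropilin-1 is needed for it. In wild type Treg 4 members rose with Sema4a-Ig (Trat1, Rasgrp1, Dgka and Ppp3ca) and 3 fell (Ubash3b, Sh2d2a and Stim1), where 5.79% of all genes were called, 2.91% higher and 2.88% lower. At an unadjusted p under 0.05 there were 16 of 40 members, against 21.1% of all genes. The sizes were modest, from -0.50 to 0.88. The median was 0.02 over 15 kinases, adaptors and effectors and -0.04 over 14 negative regulators.

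Trat1 had the largest increase. The 8 wild type pair differences were 1.54, 1.35, 1.32, 0.46, 0.57, 0.66, 0.74 and 0.44, all positive, around group means of 8.44 with Sema4a-Ig and 7.56 with IgG1. The mean difference was 0.88 ± 0.14 SE (SD 0.44, n = 8 pairs, adjusted p = 0.000832), a 1.84-fold rise, and the second Trat1 probe set gave 0.73. Replicates 1, 2 and 3 stood apart from the other 5. So did the knockout pairs numbered 1, 2 and 3, where the pairs gave 0.96, 0.70, 1.13, 0.23, 0.07, 0.10, 0.07 and 0.22. Pairs numbered 3 to 8 have consecutive title numbers across the genotypes, but the titles do not link wild type replicates 1 and 2 to the knockout ones. Whether consecutive numbers mark a shared batch is not known. Rasgrp1 differed by 0.92, 0.42, 0.80, 0.35, 0.35, 0.41, 0.80 and 0.29 in the wild type pairs. It rose by 0.54 ± 0.09 SE (adjusted p = 0.000958), and its second probe set by 0.33. Dgka, which encodes the diacylglycerol kinase that removes the lipid Rasgrp1 responds to, rose by 0.49 ± 0.09 SE (adjusted p = 0.00302), with pair differences from 0.07 to 0.91 and a median of 0.46. Ppp3ca rose by 0.44 ± 0.09 SE (adjusted p = 0.00555), with pairs from 0.14 to 0.88. Both of these genes had all 8 pairs above 0.

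Of the members that fell, Ubash3b gave -1.41, -0.55, -1.19, -0.02, -0.27, -0.19, -0.18 and -0.23. All 8 were negative, but 2 pairs carried much of the mean (-0.50 ± 0.13 SE, adjusted p = 0.0238), and the call was lost without replicate 1 or without replicate 3. Sh2d2a fell by 0.29 ± 0.09 SE (adjusted p = 0.0466), with pairs from -0.55 to -0.11, and Stim1 fell by 0.24 ± 0.07 SE (adjusted p = 0.0456), with pairs from -0.59 to -0.08. These calls sat at the edge: Sh2d2a lost its call on leaving out any 1 pair, and Stim1 on leaving out any but replicate 4. Without wild type replicate 3 no member was called lower. Without replicate 2, the array whose Sema4a-Ig sample has the knockout genotype in its label and the wild type in its title, 7 members were called higher, including the same 4. The share of all genes called without each replicate is not given, so these counts do not set the members apart.

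**Figure D3:**
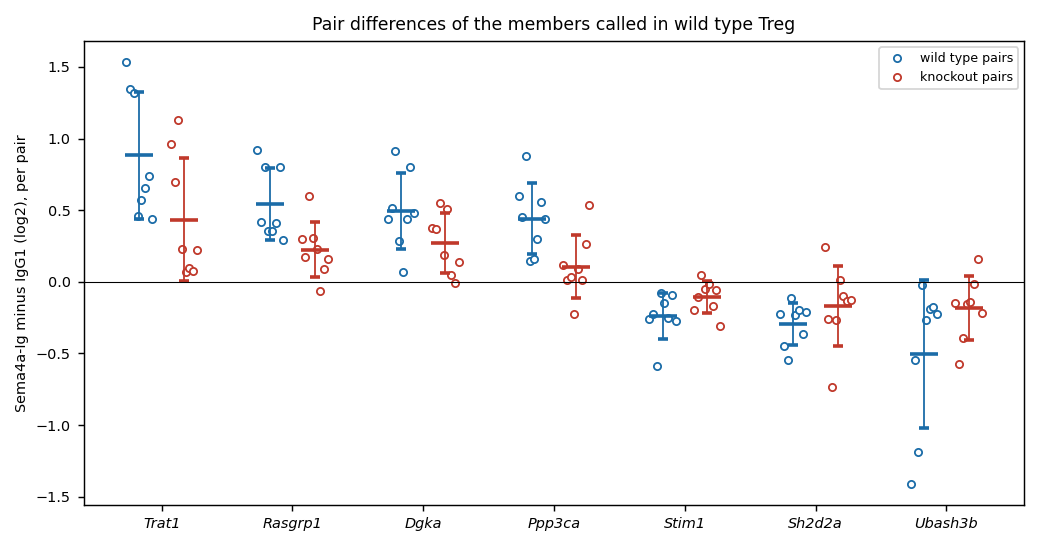
The y axis is the Sema4a-Ig minus IgG1 difference in log2 units for each of 8 pairs per genotype (open points) of the 7 members called in wild type Treg; wide bars are means and thin bars 1 SD. Trat1, Rasgrp1, Dgka and Ppp3ca have all wild type points above 0, Stim1, Sh2d2a and Ubash3b all below, and the knockout means lie on the same side but nearer to 0.

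The promoters of 3 of these genes, the Ras activator and the diacylglycerol kinase that rose and the phosphatase that fell, are shown from the same source and with the same motif marks. They lie at chr2:117342878-117343127 for Rasgrp1, chr10:128745085-128745334 for the most upstream of 4 Dgka starts and chr9:41158063-41158312 for the more upstream of 2 Ubash3b starts, all on the minus strand.

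Rasgrp1: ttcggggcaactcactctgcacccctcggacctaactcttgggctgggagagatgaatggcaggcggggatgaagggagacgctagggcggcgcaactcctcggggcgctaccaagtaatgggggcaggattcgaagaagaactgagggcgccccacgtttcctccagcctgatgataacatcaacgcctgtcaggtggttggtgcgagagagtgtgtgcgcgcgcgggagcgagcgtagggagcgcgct
Dgka: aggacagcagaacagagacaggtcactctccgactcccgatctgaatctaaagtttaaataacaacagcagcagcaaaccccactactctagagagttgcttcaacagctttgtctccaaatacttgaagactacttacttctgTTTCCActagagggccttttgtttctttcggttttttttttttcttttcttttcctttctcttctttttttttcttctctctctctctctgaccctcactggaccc
Ubash3b: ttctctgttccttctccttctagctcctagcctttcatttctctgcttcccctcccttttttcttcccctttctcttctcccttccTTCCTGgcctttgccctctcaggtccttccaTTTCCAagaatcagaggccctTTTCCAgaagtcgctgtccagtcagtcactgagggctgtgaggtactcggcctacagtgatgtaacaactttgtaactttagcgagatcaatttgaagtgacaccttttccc

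Rasgrp1 held none of the 5 motifs in its window, Dgka the NFAT letters once, and Ubash3b the NFAT letters at 2 places and the ETS letters once.

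The other members showed smaller differences. Cd3g (0.24, adjusted p = 0.0721) and Cd3d (0.21, adjusted p = 0.0754), whose starts lie 1355 bases apart and face away from each other, were positive in 7 of 8 pairs each, and so were Cd247 (0.14), Txk (0.40, adjusted p = 0.0749) and Prkcq (0.30, adjusted p = 0.0599). Cd3e gave 0.14 and Cd4 -0.05. Zap70 (-0.25, adjusted p = 0.173), Orai1 (-0.30, adjusted p = 0.0889) and Ptpn6 (-0.21, adjusted p = 0.146) were negative in 7 of 8 pairs. Cd5 (-0.17, adjusted p = 0.134) and Sla (-0.19, adjusted p = 0.103) were negative in all 8. Counting these with the fallers, 5 members were negative in every pair and 4 positive in every pair, against 4.36% and 3.03% of all genes. Themis, which separated Treg from conventional cells, differed by 0.19 (adjusted p = 0.241). Fyn (0.02), Lat (-0.07), Lcp2 (-0.04), Vav1 (-0.06), Bcl10 (-0.08), Pag1 (-0.01), Itch (0.00) and Ubash3a (-0.08) were close to 0, their mean signals lying between 6.36 for Vav1 and 10.02 for Lcp2. Plcg1, at a mean signal of 4.16, gave 0.14, Rnf128, at 3.97, gave 0.05, and Sos1, at background, 0.18. Malt1 (-0.19), Nfatc1 (0.08, with -0.26 and adjusted p = 0.0854 for the probe set 1417621_PM_at), Nfatc2 (0.17), Nfatc3 (0.12), Cd6 (-0.12), Ptpn22 (0.08), Cbl (0.14), Cblb (-0.10) and Dgkz (0.16) were not called.

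Markers of other cells moved with the ligand in wild type pairs. Of 16 myeloid markers 3 rose, Lyz2 by 0.81, Tyrobp by 0.39 and Ctss by 0.37, and 13 were positive; the summed linear signal was 1588 to 2031 with Sema4a-Ig against 1224 to 1551 with IgG1. Of 11 CD8 and NK markers 1 fell, Nkg7 by 0.52, and 9 were negative in each genotype; their summed signal in wild type was 1647 to 2220 with Sema4a-Ig against 1995 to 2755 with IgG1. The part of CD8 and NK cells was not tested. With the mean myeloid difference of each pair as a covariate, Trat1, Rasgrp1, Dgka and Ppp3ca kept their calls, and no member was called lower. That covariate was centred over all 16 pairs of both genotypes, so the fit does not fully remove the myeloid difference of the wild type pairs. Whether myeloid cells have a part in the members' differences was not tested.

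In knockout Treg no member was called, as no gene was among all 17097 (0%). At an unadjusted p under 0.05 limma gave 6 members, against 10.5% of all genes. Trat1 (0.44 ± 0.14 SE, adjusted p = 0.378) and Cbl (0.18 ± 0.07 SE, adjusted p = 0.431) were positive in 8 of 8 pairs, where 0.988% of all genes were positive and 1.66% negative in every pair, and Dgka (0.27, adjusted p = 0.378), Rasgrp1 (0.22, adjusted p = 0.419) and Sos1 (0.36, adjusted p = 0.401) in 7 of 8. Sos1 lay at background, with a mean signal of 3.80. Rnf128, the sixth, was negative in 7 of 8 (-0.29, adjusted p = 0.431), with a level near background. Ubash3b gave -0.18, Sh2d2a -0.17, Stim1 -0.11 and Ppp3ca 0.11, each on the side it had in wild type.

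The difference between genotypes was tested directly and no member passed, nor did any gene (0%). No member had knockout pairs wholly apart from the wild type ones, where 0.0117% of all genes were higher and 0.0292% lower in that sense. Unadjusted p was under 0.05 for 3 members, Trat1, Rasgrp1 and Ppp3ca, against 5.94% of all genes. The knockout minus wild type difference was -0.45 for Trat1 (95% interval -0.85 to -0.05, adjusted p = 0.830), -0.32 for Rasgrp1 (-0.57 to -0.07, adjusted p = 0.791) and -0.34 for Ppp3ca (-0.59 to -0.08, adjusted p = 0.791). Rnf128 gave -0.33 (-0.67 to 0.00), Dgka -0.22 (-0.48 to 0.04) and Ubash3b 0.32 (-0.05 to 0.69). A smaller effect in the knockout is therefore not established for these genes, and intervals this wide do not show that the genotypes act alike. Across the 40 members the 2 ligand differences, from separate arrays, had the same sign for 30 (75%) with Pearson's r = 0.81, against 64.9% and 0.51 over 16685 genes. The values describe genes, which are not independent replicates. Members also had a higher median signal on these arrays (8.24) than all genes (4.55), and the all-gene values are not matched for level.

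**Figure D4:**
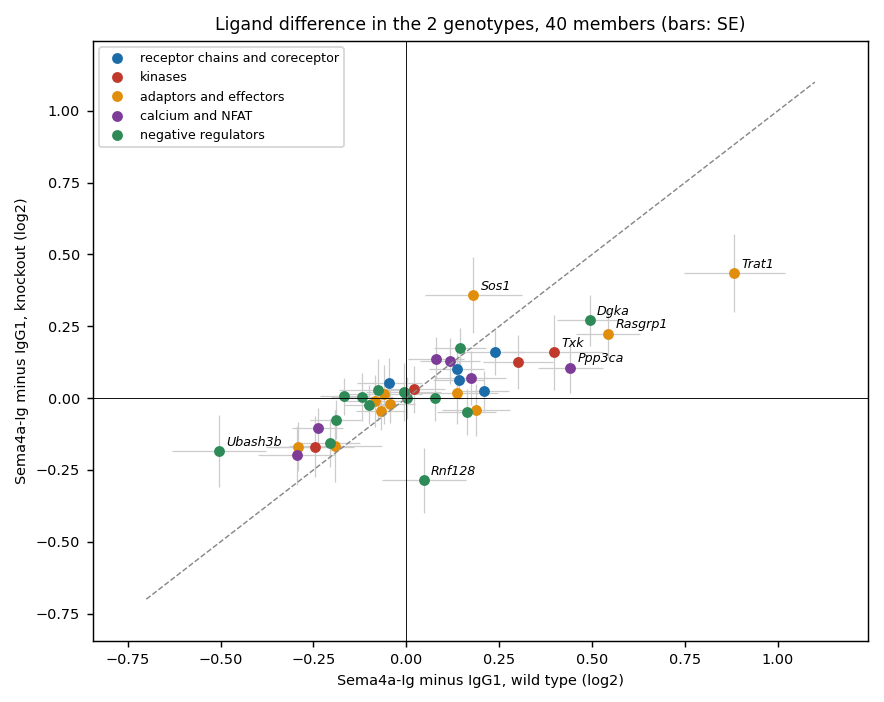
Each point is one of 40 members, coloured by role, with the mean Sema4a-Ig minus IgG1 difference (log2) in wild type on the x axis and in knockout on the y axis; bars are standard errors from limma and the dashed line marks equal values. Trat1, Rasgrp1, Dgka and Ppp3ca lie right of the line with knockout values of 0.44, 0.22, 0.27 and 0.11, and Ubash3b lies left of 0 on both axes.

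The ligand differences were placed beside those of activation, a comparison that shares no array and no array type with them. Of the 7 members called with Sema4a-Ig in wild type, 6 had the opposite sign on activation, as had 67.5% of the 963 genes called with the ligand and measured in both experiments. Trat1 was -0.80 with activation and 0.88 with the ligand, Rasgrp1 -0.60 and 0.54, Dgka -0.68 and 0.49, and Ppp3ca -0.72 and 0.44. Ubash3b was 0.55 and -0.50, and Sh2d2a 0.45 and -0.29. Stim1 was negative in both (-0.09 and -0.24). The probe set of highest mean was not the same on both array types for 12 of the 40 members, among them Ppp3ca, Ubash3b and Stim1. With the counterpart of the ligand probe set, activation gave -0.33 for Ppp3ca, 0.19 for Ubash3b and -0.25 for Stim1. The sign counts and correlations over the members set these unlike probe sets side by side. Over all 40 members 26 (65%) had opposite signs, with Pearson's r = -0.60 and Spearman's rho = -0.59, against 53.3%, -0.21 and -0.14 over all genes on both array types. Members had higher signals: medians were 10.71 on the sorted and 8.24 on the ligand arrays, against 5.76 and 4.55 for all genes. The all-gene values are not matched for this level. Opposite signs were seen in 12 of 14 negative regulators (85.7%) and in 11 of 15 kinases, adaptors and effectors (73.3%). With activation taken within the low 3' minus 5' class r was -0.50 and 22 of 40 signs were opposite, and within the high class -0.62 and 27 of 40. Over all genes the opposite share was 55.9% in the low class and 54% in the high class, so the 55% of members in the low class was no more than that of all genes. In the knockout r was -0.48 and 22 of 40 were opposite (55%, against 53.3% of all genes). Among the activation values 1 member was called, so most of these signs belong to differences inside their error.

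**Figure D5:**
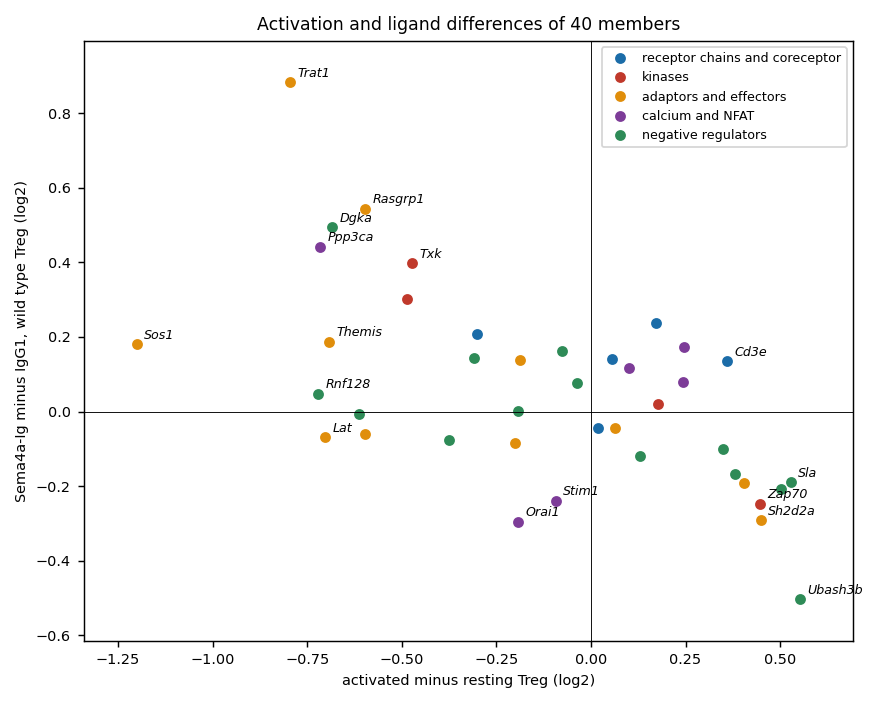
Each point is one of 40 members, coloured by role, with the activated minus resting Treg difference (log2) on the x axis and the Sema4a-Ig minus IgG1 difference in wild type Treg (log2) on the y axis. Trat1, Rasgrp1, Dgka and Ppp3ca lie at the upper left and Ubash3b, Sh2d2a, Zap70 and Sla at the lower right.

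Other genes of the same pathway, from 3 lists, moved with the members to differing degrees. Of 28 other activating genes 2 were higher and 2 lower in resting Treg than in conventional cells, where 3.86% of all genes were higher and 1.65% lower. Vav2, a relative of Vav1, rose by 2.99 ± 0.31 SE (adjusted p = 0.00108) from 5.54 and 5.47, while Rasgrp2 fell by 1.79 and the PI3K subunit Pik3cd by 1.34; the adaptor Grap rose by 1.28. In activated Treg against conventional cells 2 were higher and 5 lower, where 5.93% of all genes were higher and 3.77% lower. Among the 5 lower genes was Tec (-2.57, adjusted p = 0.00604), a kinase of the same family as Txk. In the calcium and NFAT list (19 genes) the resting comparison had Stim2 higher (1.27, adjusted p = 0.0142) and Orai2 lower (-1.63, adjusted p = 0.00405), though the members Stim1 and Orai1 were not called. Of 27 other inhibitory genes 5 were higher and 3 lower in resting Treg. Lgals3 (3.96), Cish (2.16), Nedd4 (1.95) and Tnfaip3 (1.78) were the largest increases, and Sit1 (-1.35) and Socs1 (-1.09) the largest decreases. None of these 28, 19 and 27 genes was called between activated and resting Treg. With Sema4a-Ig in wild type, 3 of 28 activating genes rose and 1 fell, 2 of 19 calcium and NFAT genes rose, and 6 of 26 inhibitory genes rose and 0 fell, where 2.91% of all genes were called higher and 2.88% lower. Rasa3, a Ras GTPase activating protein that opposes Rasgrp1, rose by 0.74 ± 0.10 SE (adjusted p = 0.000393), and Rasgrp2 by 0.48, the adaptors Fyb by 0.46 and Skap1 by 0.32, Itpr2 by 0.39 and Rcan3 by 0.35. The receptor response genes were negative at all 12 in wild type, with Nr4a2 (-0.51), Irf4 (-0.50) and Nr4a3 (-0.41) called, and at all 12 in the knockout, with 0 called.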

How the data were processed

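RNA of mouse CD4 T cells was hybridised to 2 Affymetrix array types. The deposited values are log2 signals per probe set, made with RMA and Partek 6.6 per the submitters' processing notes, which give no role or order; they were used as deposited. Probe sets were named from GEO's platform annotation with symbols updated through RefSeq: 34958 of 45101 probe sets on the sorted arrays and 28898 of 45141 on the ligand arrays had 1 gene. For each gene the probe set of highest mean was kept. In limma 3.58.1 (R 4.3.3) the 8 sorted arrays were fitted with 3 group means (5 residual degrees of freedom). The 32 ligand arrays were fitted as 16 Sema4a-Ig minus IgG1 differences with a mean per genotype (14 degrees). IgG1 and Sema4a-Ig arrays were paired by neighbouring numbers in their titles; pair means at a gene agreed within 6e-05. P-values were adjusted (Benjamini-Hochberg) over all genes, threshold 0.05. Both fits were tested on simulated data. The number of arrays limits the precision.

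The members and lists were chosen with earlier results of these data known. Named with values are members past the threshold and the 5 of largest absolute difference per comparison, every member at least once with its level, up to 6 called genes per list, and genes that define a cell type. Alternatives covered probe set choice, low-signal genes, scaling, weights, variance prior, RNA quality, title numbers, covariates and each replicate.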

Additional observations from a re-analysis of the deposited data

Results flagged for a closer look

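The 8 pair differences of each member in each genotype were searched for 1 pair far from the rest (Dixon's test at 95%), and 9 of 80 such groups had one; chance gives about 1 in 20. Wild type replicate 2, whose labels disagree on genotype, held 3 of them: Cd4 at 0.34 (next 0.03), Dgkz at 0.67 (next 0.23) and Nfatc1 at -0.32 (next 0.04). Wild type replicate 3 had Stim1 at -0.59 (next -0.27), a member called in that comparison. Pag1 was far below the other pairs in wild type replicate 1 at -0.63 (next -0.11) and in knockout replicate 2 at -0.67 (next -0.10). Itch was at -0.37 in wild type replicate 4 (next -0.06), Malt1 at -0.62 in knockout replicate 1 (next -0.24) and Cblb at 0.30 in knockout replicate 8 (next 0.01).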

How the results depend on the processing

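Over 27 named calls and their alternatives, 333 of 427 kept direction and side of the threshold, 94 kept direction without passing, and 0 reversed. Counts of members called are given below where they moved by over 1.5 times, and the cause was not tested. The share of all genes called is not given beside these counts. They therefore do not say whether the members moved more than other genes. Resting Treg against conventional cells (3 higher, 3 lower) gave 5 lower with the mean of all probe sets, 5 lower with quantile normalization, 7 higher and 9 lower with array weights, 6 lower with the RNA quality class as a block, 5 lower with the low class only, and 6 higher and 6 lower with blocks of neighbouring title numbers as a random effect. Activated against resting Treg (0 higher, 1 lower) gave 1 higher and 0 lower with the mean of all probe sets, 7 lower with array weights, 2 lower with the title block, and 0 lower with only the 2 groups compared or the low class only. Activated Treg against conventional cells (5 higher, 8 lower) gave 9 higher and 17 lower with array weights and 5 lower with the low class only. Sema4a-Ig in wild type (4 higher, 3 lower) gave 7 higher with the mean of all probe sets. It gave 1 lower with quantile normalization, with median centring and with a trended robust prior, and 0 lower with the myeloid covariate and with each genotype fitted alone.

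The pairs of the ligand experiment come from neighbouring title numbers. In 6 sets a wild type and a knockout pair also have consecutive title numbers, an alternative chosen after seeing the data. Own-set correlations of deviations ran from -0.054 to 0.245, and 1 of 6 was over 0.1. With so few sets these correlations cannot tell whether consecutive numbers mark a shared batch. With the sets as a replicate block no member and no gene was called for knockout minus wild type, in limma, and 6 members and 7.22% of genes had an unadjusted p under 0.05. Trat1 was -0.39 and Rasgrp1 -0.28, negative in 6 of 6 sets, with adjusted p = 0.604 and 0.676. Without the pairs as a replicate block, on 32 arrays, Sema4a-Ig gave 14 higher and 8 lower in wild type, 6 higher and 1 lower in knockout, and 2 lower for the difference between genotypes. The 2 arrays of a pair share 1 mean at every gene, so they are not independent, as this fit takes them to be. Its errors are therefore too small, and its calls are not read as effects. Leaving out 1 replicate in turn gave 0 to 3 higher and 1 to 3 lower for resting Treg against conventional cells, 0 higher and 0 to 1 lower for activation, 1 to 5 higher and 3 to 13 lower for activated Treg against conventional cells, 4 to 7 higher and 0 to 2 lower for Sema4a-Ig in wild type, and 0 in the knockout and between genotypes. Only 2 conventional arrays and 3 per Treg group limit what the sorted comparisons can resolve.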
